A study of Mus musculus with 2 samples.

Results

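Transcripts of 7 chemokine genes that draw neutrophils and monocytes were examined in mouse myeloid-derived suppressor cell (MDSC) cultures: Cxcl2, Cxcl3, Ccl2, Ccl3, Ccl4, Ccl6 and Ccl9. They were found by symbol among the 32285 genes of the deposited tables, and all 7 had counts in both libraries. The cells had been grown out in culture with IL-6 and the growth factor GM-CSF, both at 40 ng/mL. One group of cells received DMSO as vehicle and the other 50 nM selinexor, a drug that blocks the nuclear export carrier exportin 1, and both were taken at day 4. Live cells carrying CD11b, a myeloid integrin, were sorted after tagging, pooled and captured in droplets for single-cell RNA sequencing. Each group held 1 library, and whether it pooled several mice or cultures is not stated. No difference between the libraries therefore has a replicate check, no test was run, and every interval covers counting error only.

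Chemokines are small secreted proteins that bind G protein-coupled receptors and direct leukocytes along their gradient. Cxcl2 and Cxcl3 act on Cxcr2 and recruit neutrophils, Ccl2 acts on Ccr2 and recruits inflammatory monocytes, Ccl3 acts on Ccr1 and, like Ccl4, draws monocytes and other leukocytes, and Ccl6 and Ccl9 are rodent ligands of Ccr1. Many of these genes are induced through NF-kB and their mRNAs are short-lived, and MDSCs use such ligands to attract further myeloid cells.

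The members sit in 2 gene clusters of the mm10 genome. On chromosome 5, Cxcl3 (90786103 to 90789600) and Cxcl2 (90903871 to 90905938) lie on the plus strand with 114 kb between them. On chromosome 11, Ccl2 lies at 82035571 to 82037453 on the plus strand. Farther along the same chromosome come Ccl9 (83572919 to 83578636, minus strand), Ccl6 (83587882 to 83593087, minus strand), Ccl3 (83647844 to 83649355, minus strand) and Ccl4 (83662584 to 83664683, plus strand). The closest neighbours are Ccl9 and Ccl6, 9.25 kb apart, and Ccl3 and Ccl4, 13.2 kb apart.

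RefSeq start-site windows (build GRCm38.p6, 250 bases before to 50 after the start) were matched for 5 of the 7 members, leaving Ccl2 and Ccl4. Those of the genes that moved most in each direction are shown, since Cxcl2 and Cxcl3 were lower and Ccl6 and Ccl9 higher in the selinexor library. The windows are chr5:90903649-90903948 on the plus strand for Cxcl2 and chr5:90785851-90786150 on the plus strand for Cxcl3. Those of Ccl6 and Ccl9 are chr11:83593038-83593337 and chr11:83578587-83578886, both on the minus strand. Capitals mark matches to an NF-kB-type motif (GGG, any 2 bases, then TTTCC) and to the TATA-type letters ATAAAAGG, on either strand, and the longest run shared by Ccl6 and Ccl9.
Cxcl2: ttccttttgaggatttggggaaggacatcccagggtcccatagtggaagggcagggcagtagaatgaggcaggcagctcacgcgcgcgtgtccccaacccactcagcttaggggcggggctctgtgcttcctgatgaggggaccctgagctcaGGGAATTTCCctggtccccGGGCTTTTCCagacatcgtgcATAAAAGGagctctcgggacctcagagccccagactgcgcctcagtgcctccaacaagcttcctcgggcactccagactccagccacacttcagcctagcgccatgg
Cxcl3: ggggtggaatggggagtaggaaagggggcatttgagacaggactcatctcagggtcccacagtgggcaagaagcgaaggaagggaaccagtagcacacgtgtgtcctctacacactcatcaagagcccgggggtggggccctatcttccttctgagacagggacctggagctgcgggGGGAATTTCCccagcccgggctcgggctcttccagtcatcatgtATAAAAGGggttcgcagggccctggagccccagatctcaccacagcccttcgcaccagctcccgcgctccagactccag
Ccl6: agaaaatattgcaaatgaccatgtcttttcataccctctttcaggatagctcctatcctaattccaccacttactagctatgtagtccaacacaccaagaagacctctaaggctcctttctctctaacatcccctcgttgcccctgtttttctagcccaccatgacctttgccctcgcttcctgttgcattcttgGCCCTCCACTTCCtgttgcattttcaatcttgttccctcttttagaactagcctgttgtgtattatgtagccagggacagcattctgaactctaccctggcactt
Ccl9: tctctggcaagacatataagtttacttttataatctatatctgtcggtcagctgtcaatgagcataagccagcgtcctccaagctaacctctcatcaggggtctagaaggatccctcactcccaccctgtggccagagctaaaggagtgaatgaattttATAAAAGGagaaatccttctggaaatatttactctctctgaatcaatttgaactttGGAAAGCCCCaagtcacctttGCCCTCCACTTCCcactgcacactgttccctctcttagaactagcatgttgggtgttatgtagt

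The motif letters were chosen with these sequences in view and a match is a description, not a bound site. The Cxcl2 window held the NF-kB-type motif at -97 (GGGAATTTCC) and at -78 (GGGCTTTTCC), and the Cxcl3 window held it at -73 (GGGAATTTCC). The Ccl9 window held it on the other strand at -35 (GGAAAGCCCC). These letters were in none of the Ccl3 and Ccl6 windows, and they occurred in 1.63% of the 32851 windows of all genes. ATAAAAGG stood at -57 in Cxcl2, -29 in Cxcl3 and -91 in Ccl9, against 1.76% of all windows. Positions count from the RefSeq start. For Cxcl2 the GENCODE start (90903871) lies upstream of it, so by GENCODE its motifs would stand nearer to the start. The AP-1-type letters TGANTCA, in 7.81% of all windows, occurred only in Ccl9 among the 5 members, at -53 and with no overlap with the other motifs. The Cxcl2 and Cxcl3 windows were identical at 72.8% of 265 aligned bases and the Ccl6 and Ccl9 windows at 68.05% of 241, while the other pairs of the 5 windows had 52.6% to 66.0%.

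The kept cells numbered 1742 with 14209188 UMIs (counted molecules) in the DMSO library and 1962 with 12771314 UMIs in the selinexor library. The median cell held 7786.5 UMIs in the DMSO library and 3912 in the selinexor library, so shares of cells are given after thinning each cell to 2000 UMIs, which left out 314 and 783 shallower cells. No barcode occurred in both libraries. Itgam, which encodes the sorted CD11b, had a UMI in 75.9% and 68.4% of cells, and the myeloid gene S100a8 stood at 58452 and 36609 CPM. The T cell marker Cd3e had 1 and 0 UMIs.

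Cxcl2 and Cxcl3, both ligands of the neutrophil receptor Cxcr2, were lower in the selinexor library, and Ccl6 and Ccl9 were higher. Cxcl2 had 8998 UMIs in the DMSO library and 2042 in the selinexor library, or 633 against 160 CPM (UMIs scaled to a fixed total per library). This is a log2 ratio of -1.99 (95% counting interval -2.06 to -1.92), 3.96-fold lower with selinexor. Cxcl3 had 332 and 87 UMIs, or 23.4 and 6.81 CPM, a log2 ratio of -1.78 (-2.14 to -1.43). The Cxcl3 interval overlapped that of Cxcl2.

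The Ccr1 ligands Ccl6 and Ccl9 went the other way, while Ccl3, which also acts on Ccr1, stayed within 1.5-fold. Ccl6 had 29367 UMIs (2067 CPM) in the DMSO library and 46740 (3660 CPM) in the selinexor library, 1.77-fold higher, with a log2 ratio of 0.82 (0.80 to 0.85). Ccl9 had 2032 UMIs (143 CPM) and 3787 (297 CPM), 2.07-fold higher, with a log2 ratio of 1.05 (0.97 to 1.13). With every cell weighted equally the Ccl9 ratio was 0.58, under 1.5-fold. Of 10387 genes with at least 50 UMIs, 4.72% were at least 1.5-fold lower and 12.4% at least 1.5-fold higher, beside 2 of 7 members in each direction. The median log2 ratio of those genes was 0.14.

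Ccl3, Ccl4 and Ccl2 stayed within 1.5-fold. Ccl3 had 3152 and 2540 UMIs, or 222 and 199 CPM, a log2 ratio of -0.16 (-0.23 to -0.08). Ccl4 had 1722 and 1265 UMIs, or 121 and 99.05 CPM, a log2 ratio of -0.29 (-0.40 to -0.19). It was -0.90 over cells thinned to 2000 UMIs and -0.85 under a stricter cell filter, both past 1.5-fold. Thinning left out the cells under 2000 UMIs, which held 486 of the DMSO and 545 of the selinexor Ccl4 UMIs. The -0.90 thus rests on another set of cells as well as on like depth. Ccl2, the monocyte attractant, had 300 and 341 UMIs, or 21.1 and 26.7 CPM, a log2 ratio of 0.34 (0.11 to 0.57). For Ccl2 and Ccl4 these sums rested on few cells: the 1% of cells richest in Ccl2 held 48.7% of its DMSO and 75.4% of its selinexor UMIs, and for Ccl4 the shares were 36.2% and 38.6%. Without those cells the Ccl2 ratio was -0.71, at least 1.5-fold lower.

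**Figure D1:**
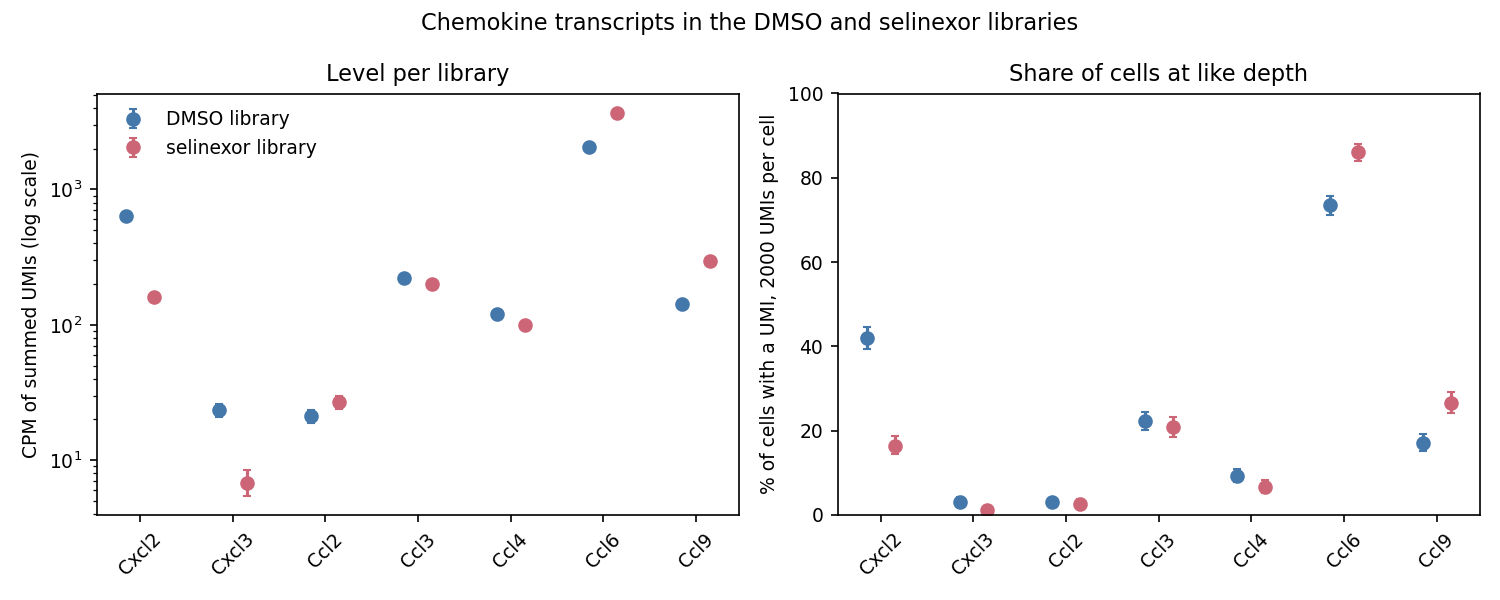
Left, CPM of the summed UMIs of each chemokine gene (log axis) in the DMSO library (blue) and the selinexor library (red), with exact 95% Poisson intervals. Right, percent of cells with at least 1 UMI after thinning each cell to 2000 UMIs, with exact binomial intervals; Cxcl2 lies at 41.9% and 16.5%, Ccl6 at 73.5% and 86.0%.

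For Cxcl2, Cxcl3, Ccl6 and Ccl9 the share of cells with a transcript at like depth differed in the same direction as the level. Cxcl2 was found in 41.9% of 1428 thinned DMSO cells (Clopper-Pearson interval 39.3% to 44.5%) and in 16.5% of 1179 thinned selinexor cells (14.4% to 18.7%). Without thinning the shares were 58.1% and 25.7%. The cells that held Cxcl2 also held less of it, with means of 2.97 and 2.05 UMIs among positive thinned cells. Both the share of positive cells and the count within them were thus lower in the selinexor library.

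Cxcl3 was found in 3.15% and 1.19% of thinned cells, and in 8.90% and 3.01% without thinning. Ccl6 was found in 73.5% (71.1% to 75.7%) and 86.0% (83.9% to 87.9%) of thinned cells, with means of 7.05 and 9.95 UMIs in positive cells. Its unthinned shares, 87.0% and 89.8%, differed less, and at full depth most cells of either library held it. Ccl9 was found in 17.2% and 26.6% of thinned cells, and in 34.4% and 38.6% without thinning.

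For the other members the counting intervals of the thinned shares overlapped between the libraries. Ccl3 was found in 22.2% (20.1% to 24.4%) and 20.8% (18.5% to 23.2%) of thinned cells, and in 50.0% and 43.4% without thinning. Ccl4 was found in 9.31% (7.86% to 10.9%) and 6.62% (5.26% to 8.19%), with unthinned shares of 22.0% and 19.1%. Ccl2 was found in 3.08% (2.25% to 4.11%) and 2.63% (1.79% to 3.71%), with unthinned shares of 7.52% and 4.38%.

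Every member was found in a lower share of the cells of the earliest stage than of each whole library. The earliest neutrophil-like cells, led by the granule protease gene Ctsg, had a median of 13217 and 14313.5 UMIs, deeper than the median cell of either library. After thinning, Cxcl2 was found in 1.04% of these 193 cells, Ccl9 in 2.07%, Ccl4 in 1.55% and Ccl2 in 0.518%. All these lay under the shares over each whole library, by the least for Ccl2. Ccl3 was found in 8.81% of them, and Ccl6 in 17.6% of the DMSO and 50.0% of the selinexor cells, both under the shares over the whole libraries. Whether these UMIs came from the cells themselves or from free RNA was not tested, so these cells are no blank for free RNA. Cxcl3 was found in 0 of the 193 thinned cells (interval up to 1.89%).

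The chemokine transcripts came from most of the 13 clusters into which the cells of both libraries fell when chemokine genes were left out of the clustering. Clusters are called by genes among those with the highest fold over the other cells, and as neutrophil-like, monocyte-like or dendritic cell-like where their markers allowed. A large part of the mix differed between libraries: a stefin-led cluster held 351 DMSO and 12 selinexor cells, and an Fn1-led monocyte-like cluster held 13 and 391. A cluster that is mostly of 1 library cannot be told apart from that library. The sum of 11 monocyte markers was 3001 CPM in the DMSO and 4759 CPM in the selinexor library, and that of 12 macrophage markers 565 and 467 CPM, with no marker of either list at 0. Both libraries were also given the same mix of the 9 clusters with at least 20 cells in each, weighted by number of cells. The stefin-led and Fn1-led clusters, where the mix differed most, were left out of it. The part of the whole mix in the library ratios was therefore not measured. Over these 9 clusters the log2 ratios were -2.39 for Cxcl2 and -2.84 for Cxcl3. They were 0.57 for Ccl6 and 0.45 for Ccl9, so that both increases were under 1.5-fold there. For Ccl2 the same mix gave -1.38, the opposite side of 0 from its library ratio.

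Cxcl2 UMIs of the DMSO library came from the stefin-led cells (27.0%), the C1q- and class II-led cells (21%), the mitotic gene-led cells (16.2%) and the Mmp9-led late neutrophil-like cells (13.1%). In the selinexor library 52.0% of its UMIs came from the Fn1-led monocyte-like cells. For scale, the stefin-led, C1q- and class II-led and mitotic gene-led cells held 25.2%, 17.5% and 18.5% of all DMSO UMIs. The Fn1-led cells held 36.2% of all selinexor UMIs. The Mmp9-led, Csf3r-led and Acod1-led cells gave more Cxcl2 than their size, with 13.1%, 10.8% and 8.56% of its DMSO UMIs from 7.68%, 4.98% and 0.591% of all DMSO UMIs. The source of Cxcl2 was thus spread over several clusters with DMSO, while the Fn1-led cells gave most of it with selinexor. Cxcl3 UMIs came from the C1q- and class II-led cells (33.7%) and the stefin-led cells (24.1%) in the DMSO library, and from the Fn1-led cells (66.7%) in the selinexor library.

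Ccl2 UMIs came mostly from clusters other than the neutrophil-like ones. Its DMSO UMIs came from the C1q- and class II-led (40.3%), stefin-led (28.3%) and mitotic gene-led cells (14.0%), and its selinexor UMIs from the Fn1-led (66.9%) and mitotic gene-led cells (29.3%). The mitotic gene-led cells held 18.5% of all DMSO UMIs, more than their share of Ccl2 there. Ccl9 UMIs came from the C1q- and class II-led (31.6%) and stefin-led cells (28.1%) with DMSO and from the Fn1-led cells (64.2%) with selinexor. Ccl6 UMIs came from the stefin-led (30.1%) and Mmp9-led cells (25.3%) with DMSO and from the Fn1-led cells (46.3%) with selinexor.

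For Ccl3 and Ccl4 the Csf3r-led late neutrophil-like cells were among the leading sources in both libraries. In the DMSO library 25.3% of Ccl3 UMIs came from the stefin-led and 21.3% from the Csf3r-led cells. In the selinexor library 31.4% came from the Csf3r-led and 21.9% from the Olfm4-led intermediate neutrophil-like cells, and 16.7% from the Fn1-led cells. Ccl4 UMIs came from the stefin-led (32.6%), Csf3r-led (18.2%) and Acod1-led cells (13.9%) with DMSO, and from the Fn1-led (36.9%), Csf3r-led (31.6%) and Acod1-led cells (12%) with selinexor. The Acod1-led cells were only 39 of 1742 and 48 of 1962 cells. The stefin-led cells held 25.2% of all DMSO UMIs, close to their share of Ccl3. The Fn1-led cells held 36.2% of all selinexor UMIs, close to their share of Ccl4 and above that of Ccl3. Of their 467 Ccl4 UMIs, 131 came from 1 cell. The Csf3r-led cells gave more of both genes than their size, with 4.98% of all DMSO and 5.94% of all selinexor UMIs.

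**Figure D2:**
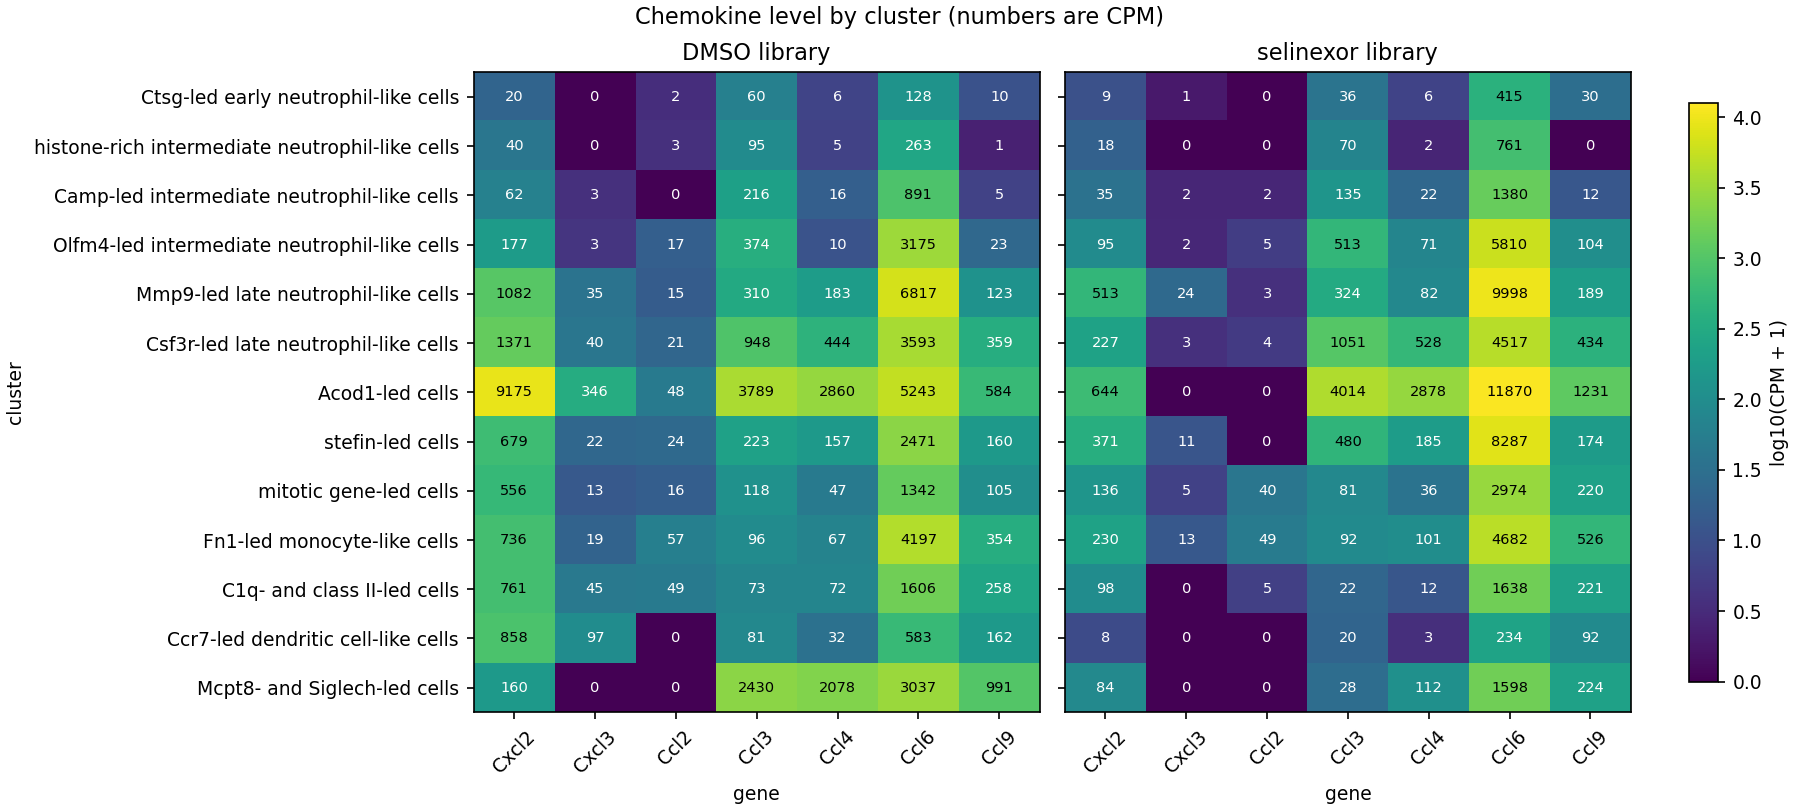
CPM of each chemokine gene (columns) in each of 13 clusters (rows) for the DMSO and the selinexor library; colour is log10(CPM + 1) and the printed numbers are CPM. The early and histone-rich neutrophil-like rows are low for Cxcl2 (19.9 and 40.3 CPM with DMSO) but not for every gene. With DMSO the histone-rich row has 95.3 CPM of Ccl3, above 72.9 in the C1q- and class II-led row. The Acod1-led row reaches 9175 CPM for Cxcl2 with DMSO and 644 with selinexor.

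Along the neutrophil-like clusters the level of Cxcl2 and Ccl6 was lowest in cells with early granule genes and higher in those with late genes. Cxcl2 stood at 19.9 CPM in the Ctsg-led, 62.2 in the Camp-led, 177 in the Olfm4-led, 1082 in the Mmp9-led and 1371 in the Csf3r-led cells of the DMSO library. In the selinexor library the same clusters had 9.28, 34.6, 95.2, 513 and 227 CPM. The order was therefore the same from the Ctsg-led to the Mmp9-led cells, and only with selinexor was Cxcl2 lower in the Csf3r-led than in the Mmp9-led cells. Ccl6 stood at 128, 891, 3175, 6817 and 3593 CPM with DMSO and at 415, 1380, 5810, 9998 and 4517 CPM with selinexor. The Csf3r-led cells are shallow, with medians of 1354 and 1051 UMIs.

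Within clusters, Cxcl2 was lower with selinexor in all 7 of the clusters where it had at least 50 UMIs and both libraries had 20 cells. In the C1q- and class II-led cells it had 1891 DMSO and 59 selinexor UMIs, a log2 ratio of -2.95 (-3.35 to -2.58). In the Csf3r-led late neutrophil-like cells it had 971 and 172 UMIs (-2.60, -2.84 to -2.36), and in the mitotic gene-led cells 1459 and 339 (-2.03, -2.20 to -1.86). The difference was smaller in the Mmp9-led cells, with 1181 and 193 UMIs (-1.08, -1.30 to -0.85), and in the Olfm4-led cells, with 53 and 103 UMIs (-0.89, -1.39 to -0.39). In the Camp-led cells Cxcl2 had 46 and 20 UMIs (-0.85, -1.68 to -0.06). Without the cell richest in Cxcl2 in each library, the Olfm4-led ratio was -0.45, under 1.5-fold, and the Camp-led ratio was -2.20. The difference was thus not confined to 1 cluster, and it ranged from -0.85 to -3.83 over the 7.

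The C1q- and class II-led cells, which carry complement and antigen presentation genes, had the most members lower. Here 5 of 7 members were at least 1.5-fold lower, beside 14.7% of all genes measured in that cluster, and 0 were higher, beside 10.2%. Ccl2 had 121 DMSO and 3 selinexor UMIs (log2 ratio -3.29, -5.58 to -1.70), Ccl4 179 and 7 (-2.63, -3.96 to -1.56) and Ccl3 181 and 13 (-1.75, -2.69 to -0.94). Cxcl3 had 112 and 0 UMIs, which with a floor of 3 counts over the cluster makes it at least 9.03-fold lower. Ccl6 (0.03, -0.07 to 0.13) and Ccl9 (-0.22, -0.50 to 0.05) lay near 0 there, which no other member did. Without the cell richest in Ccl9 in each library its ratio was -0.38 (-0.68 to -0.09), an interval under 0. The cluster held 209 DMSO and 49 selinexor cells.

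Ccl6 was on the higher side in all 9 clusters compared and at least 1.5-fold higher in 6. The log2 ratio was 1.70 (1.46 to 1.94) in the Ctsg-led early cells, with 212 DMSO and 447 selinexor UMIs. It was 1.53 in the histone-rich intermediate cells, 1.18 in the Acod1-led, 1.15 in the mitotic gene-led, 0.87 in the Olfm4-led and 0.63 in the Camp-led cells. It stayed under 1.5-fold in the Mmp9-led (0.55), Csf3r-led (0.33) and C1q- and class II-led cells. Without the cell richest in Ccl6 in each library the C1q- and class II-led ratio was -0.07 (-0.18 to 0.03), so its side of 0 rested on single cells.

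Ccl9 was at least 1.5-fold higher in 4 of 6 clusters. In the mitotic gene-led cells it had 276 and 547 UMIs, a log2 ratio of 1.06 (0.85 to 1.28). In the Olfm4-led cells it had 7 and 112 UMIs (2.15, 1.06 to 3.49), and in the Acod1-led cells 49 and 65 (1.08, 0.52 to 1.64). In the Mmp9-led cells the ratio was 0.62, and 0.44, under 1.5-fold, without the cell richest in Ccl9 in each library. The Csf3r-led cells had 0.27 (0.03 to 0.52).

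Ccl3 and Ccl4, which lie side by side in the genome, did not move one way. Ccl3 was at least 1.5-fold lower in 3 of 9 clusters, higher in none, and had ratios from -1.75 to 0.46. Ccl4 was lower in 2 of 6 clusters and higher in 1, the Olfm4-led cells, with 3 and 77 UMIs (2.83, 1.23 to 5.14). The Mmp9-led cells had 200 and 31 Ccl4 UMIs (-1.15, -1.75 to -0.60), and the Csf3r-led cells 314 and 400 (0.25, 0.03 to 0.47). Ccl2 was higher in the mitotic gene-led cells, with 42 and 100 UMIs (1.33, 0.79 to 1.88), of which 50 in the selinexor library came from 1 cell. Without the cell richest in Ccl2 in each library that ratio was 0.77. In the same cluster Ccl3 and Ccl4 were each also read without the cells richest in that gene. The Ccl3 ratio then moved from -0.54 to -0.65 and the Ccl4 ratio from -0.40 to -0.87, both past 1.5-fold.

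Read by cluster, members past 1.5-fold stood beside the following background. In the mitotic gene-led cells 1 of 6 members was lower and 3 were higher, beside 6.06% and 12.6% of all genes measured there. In the Csf3r-led cells 1 of 5 was lower and 0 higher, beside 10.1% and 20.3%. In the Mmp9-led cells 2 of 5 were lower and 1 higher, beside 12% and 27.5%, and in the Olfm4-led cells 1 and 3 of 5, beside 9.8% and 11.5%. In the mitotic gene-led, Csf3r-led and Olfm4-led cells the lower member was Cxcl2. In the Camp-led cells 2 of 3 members were lower and 1 higher, beside 14.2% and 3.94%. In the Ctsg-led cells 1 of 2 was lower and 1 higher, beside 9.31% and 6.1%, and in the histone-rich cells 0 and 1 of 2, beside 9.28% and 5.64%.

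**Figure D3:**
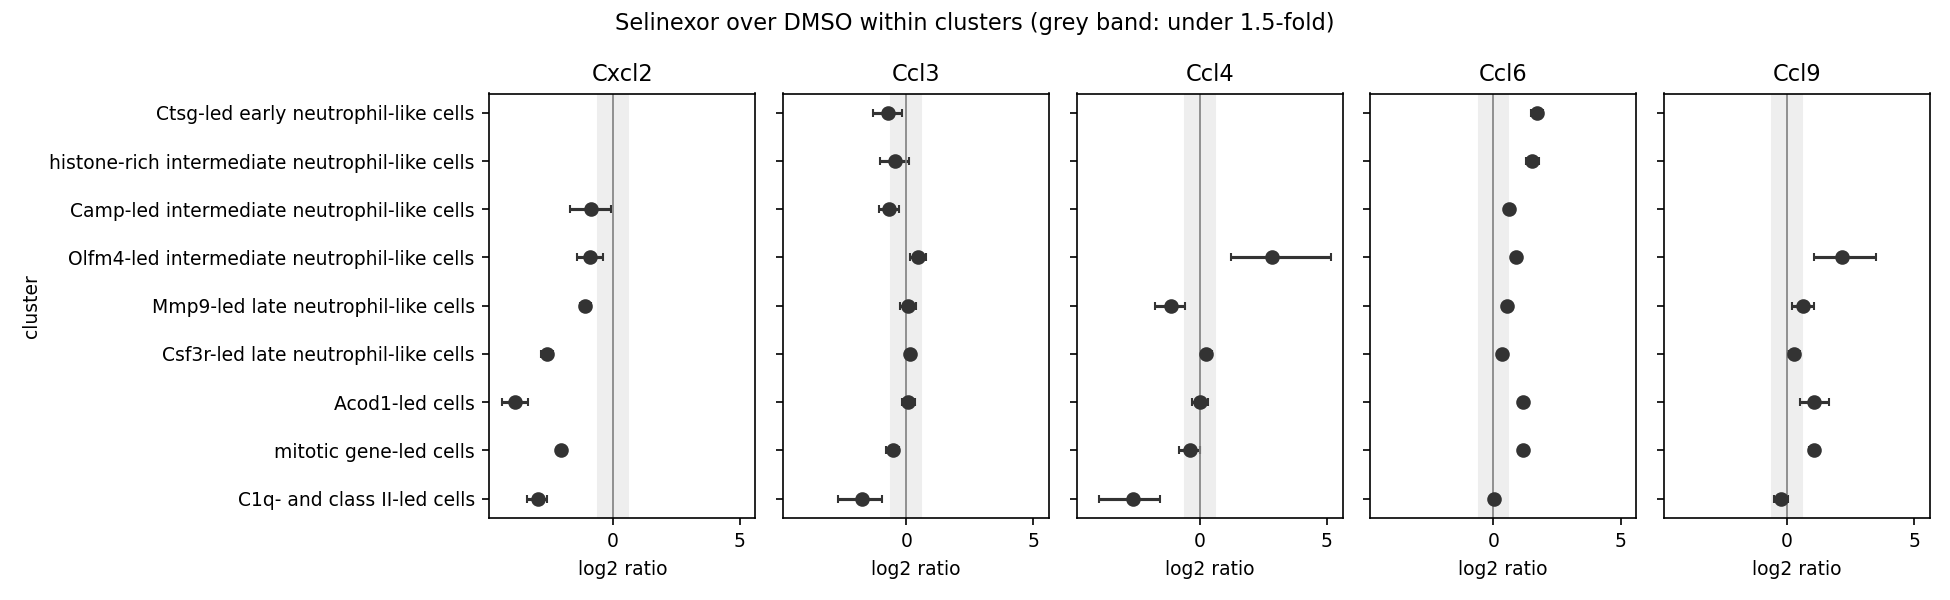
Log2 ratio of CPM, selinexor over DMSO, for 5 chemokine genes in each cluster where the gene had at least 50 UMIs and both libraries at least 20 cells; bars are 95% counting intervals and the grey band spans ratios under 1.5-fold. All 7 Cxcl2 points lie left of the band and all 9 Ccl6 points lie right of 0.

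The Acod1-led cells were the cluster with the highest level of Cxcl2, Cxcl3, Ccl3 and Ccl4 in the DMSO library. For Cxcl2, Cxcl3 and Ccl4 much of this came from the 2 cells richest in the gene. Without those 2 cells Cxcl3 fell from 346 to 24.7 CPM, with 2 UMIs left. That is under the C1q- and class II-led (45.1 CPM), Csf3r-led (39.5 CPM) and Mmp9-led cells (34.8 CPM). Cxcl2 fell from 9175 to 1591 CPM, still above the 1371 CPM of the Csf3r-led cells. Ccl4 fell from 2860 to 1448 CPM, above the 444 CPM of the Csf3r-led cells. It was then under the Mcpt8- and Siglech-led cluster, which had 19 DMSO cells and whose own Ccl4 came from a few of them. Acod1, which makes itaconate in activated macrophages and neutrophils, was among their 10 leading genes, as were Gadd45b, Ccrl2 and the members Ccl4, Ccl3 and Cxcl2, and was found in 13 of 39 and 10 of 48 cells. The cells were shallow, with medians of 1387 and 1014 UMIs, and were given no cell type name. Cxcl2 stood at 9175 CPM with DMSO and 644 CPM with selinexor, from 770 and 34 UMIs (log2 ratio -3.83, -4.37 to -3.34). Of the 770 UMIs, 641 came from 2 cells, with 427 Cxcl2 UMIs among 1686 and 214 among 1135, or 25.3% and 18.9% of all UMIs of the cell. Without the 2 cells richest in Cxcl2 in each library the ratio was -2.86. Cxcl2 was found in 18 of 39 DMSO and 10 of 48 selinexor cells of this cluster.

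In the same cells the summed levels of Ccl3 and Ccl4 were close in the 2 libraries, but 1 selinexor cell held 76 of 212 Ccl3 UMIs. Ccl3 stood at 3789 and 4014 CPM (0.08, -0.17 to 0.34) and was found in 37 of 39 and 31 of 48 cells, with medians of 7 and 1 UMIs per cell. Without the cell richest in Ccl3 in each library its ratio was -0.31 (-0.62 to -0.01). Ccl4 stood at 2860 and 2878 CPM (0.01, -0.29 to 0.31) and was found in 27 and 28 cells. Ccl6 stood at 5243 and 11870 CPM and Ccl9 at 584 and 1231 CPM. So 1 of 5 measured members was lower and 2 were higher, beside 30.9% and 20.7% of the genes measured in this small cluster. Cxcl3 had 29 UMIs with DMSO, 23 of them in the cell with 427 Cxcl2 UMIs, and 0 with selinexor.

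**Figure D4:**
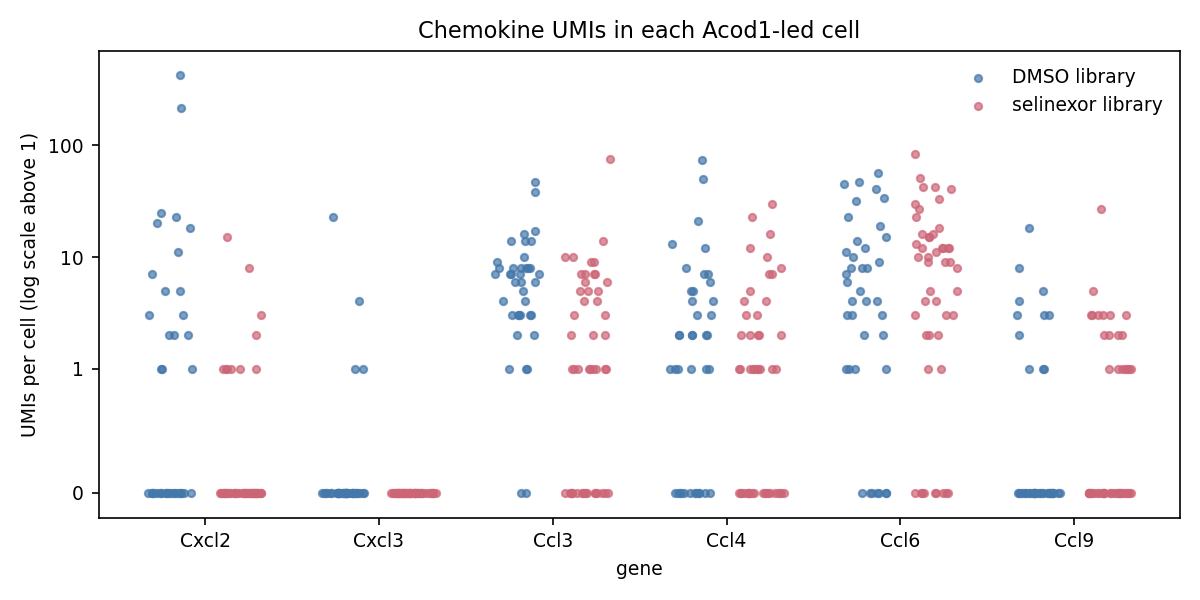
UMIs of 6 chemokine genes in every Acod1-led cell, 39 of the DMSO library (blue) and 48 of the selinexor library (red), on an axis that is linear up to 1 and logarithmic above. The 2 highest Cxcl2 points, at 427 and 214 UMIs, are DMSO cells, and the highest Cxcl2 point of the selinexor library is at 15.

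The direction of some ratios varied with the depth of the cell. Cxcl2 was lower with selinexor in cells under 2000 UMIs (1433 and 248 UMIs, -3.74), in cells of 2000 to 8000 (-2.11) and in cells over 8000 UMIs (-1.78). Ccl6 was higher in all 3 ranges (0.42, 0.62 and 1.00). Cxcl3 was lower in all 3 (-5.29, -1.97 and -1.42), with only 3 selinexor UMIs in the shallowest. Ccl9 was at -0.38 in the shallowest cells and at 0.63 and 1.19 in the others. Ccl2 was at -2.79 and -2.29 in the 2 shallower ranges, with 3 and 11 selinexor UMIs, and at 0.76 over 8000 UMIs. Of the 3 ranges only the deepest had the sign of the Ccl2 library ratio. Ccl4 was at -1.04, -0.93 and -0.40, and Ccl3, also past 1.5-fold lower in the shallowest cells (872 and 1007 UMIs), was at 0.35 in the middle range and -0.70 in the deepest.

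Most cells held few of the 7 transcripts at like depth. After thinning to 2000 UMIs, 17.4% of DMSO and 11.1% of selinexor cells held none, 29.9% and 39.4% held 1 member, and 28.2% and 32.6% held 2. Cells with 3 members made up 16.5% and 13%, and those with 4 made up 6.09% and 3.14%. All 7 members were found in 1 of 1428 thinned cells with DMSO and in 0 of 1179 with selinexor (Clopper-Pearson interval up to 0.312%). Cells with none or with several members were thus both more frequent in the DMSO library.

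Of the 21 pairs of members, Ccl3 with Ccl4 and Cxcl2 with Cxcl3 had counting intervals above the number expected from their frequencies in each cluster in both libraries. Ccl3 and Ccl4 were found together in 66 thinned DMSO cells, 1.86 times the number expected within clusters (1.44 to 2.37), and in 36 selinexor cells, 1.81 times (1.27 to 2.51). Of cells with Ccl4, 49.6% and 46.2% also held Ccl3. Cxcl2 and Cxcl3 were found together in 35 DMSO cells, 1.5 times the number expected (1.05 to 2.09), and in 11 selinexor cells, 3.25 times (1.62 to 5.82). Of cells with Cxcl3, 77.8% and 78.6% also held Cxcl2.

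Among the remaining pairs, Ccl2 with Ccl4 reached 1.98 times the expected number (0.99 to 3.55) in 11 DMSO cells and 2.83 times (1.14 to 5.82) in 7 selinexor cells. Ccl2 with Ccl3 had 1.73 times (1.04 to 2.71) and 1.79 times (0.77 to 3.52). Ccl6 and Ccl9, 9.25 kb apart, had 1.15 and 1.02 times the expected number, although 90.6% and 95.2% of cells with Ccl9 held the widespread Ccl6. Cxcl2 and Ccl3 had 1.11 and 1.18 times the expected number in 154 and 46 cells. Cxcl3 and Ccl9 reached 2.26 times (1.46 to 3.34) with DMSO and 1.41 with selinexor, and Cxcl2 and Ccl2 reached 1.10 and 2.25 times (1.29 to 3.66 with selinexor). Rank correlations over thinned cells were weak for every pair, at 0.24 and 0.19 for Ccl3 and Ccl4 over 1428 and 1179 cells, and cells of a library share its capture and depth.

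**Figure D5:**
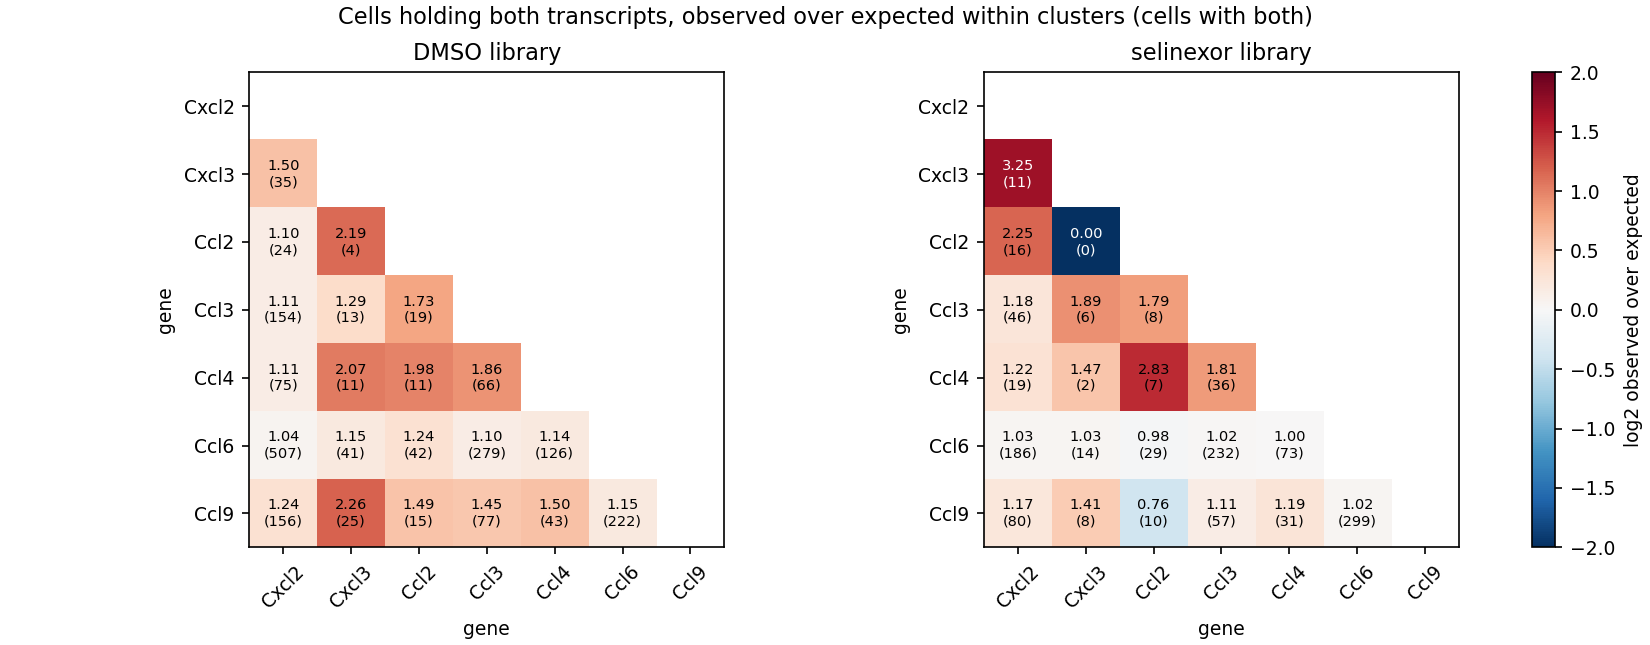
Number of thinned cells holding both members of a pair over the number expected from their frequencies within each cluster, for the DMSO and the selinexor library; colour is the log2 of this ratio and the number of cells with both is in parentheses. Ccl3 with Ccl4 stands at 1.86 and 1.81 and Cxcl2 with Cxcl3 at 1.5 and 3.25; the pair with 0 cells is drawn at the lower end of the scale.

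The genes most like each member across cells were few. Among 5640 genes ranked by mean Spearman rho over both libraries, Fth1, the ferritin heavy chain, was nearest to Cxcl2 (0.41 in DMSO and 0.22 in selinexor cells). Ccl6 was most like Fth1 (0.47 and 0.57), Wfdc17 (0.49 and 0.51) and the neutrophil collagenase Mmp8 (0.43 and 0.46). Ccl9 had mean values of 0.34 with Fth1, 0.32 with Wfdc17 and 0.30 with the metalloelastase Mmp12. No gene reached a mean of 0.3 for Ccl2, Ccl3 or Ccl4. Fth1 ranked first for Cxcl2, Ccl6 and Ccl9 alike and was abundant, with 240231 DMSO and 179885 selinexor UMIs. The part of abundance in this ranking was not tested.

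The receptors of these ligands lay partly in the cells that made them. Cxcr2, the receptor of Cxcl2 and Cxcl3, had 1069 DMSO and 629 selinexor UMIs, or 75.2 and 49.3 CPM (log2 ratio -0.61, -0.76 to -0.47). The Mmp9-led and Csf3r-led late neutrophil-like cells held 42.0% and 18.2% of its DMSO and 31.0% and 27.8% of its selinexor UMIs. Ccr1 stood at 203 and 255 CPM (0.33) and Ccr2 at 160 and 188 CPM (0.23), both within 1.5-fold. The Ccr2 UMIs came from the stefin-led (36.8%), C1q- and class II-led (31.9%) and mitotic gene-led cells (26.6%) with DMSO and from the Fn1-led cells (61.9%) with selinexor. Ccr2 thus shared its leading clusters with its ligand Ccl2, although in the DMSO library in another order. These clusters are also large: the stefin-led, C1q- and class II-led and mitotic gene-led cells held 25.2%, 17.5% and 18.5% of all DMSO UMIs. The Fn1-led cells held 36.2% of all selinexor UMIs.

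Other genes of these pathways did not follow Cxcl2 as groups. Of 25 further chemokine ligands 8 were measured, and their median log2 ratio was -0.12, with 3 lower and 2 higher. Cxcl1, another Cxcr2 ligand, had 69 and 28 UMIs (-1.15, -1.84 to -0.49), and Cxcl5 had 0 and 0. Among the other ligands the widest ratios were those of Ccl5 (4.22), Ccl22 (3.60), Pf4 (-2.92) and Ccl17 (-1.55). Of 17 chemokine receptors 8 were measured, 1 lower and 2 higher, with a median of 0.28, led by the lymph node homing receptor Ccr7 (3.58).

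Of 28 inflammatory genes known to be inducible by NF-kB, 25 were measured, with 2 lower, 9 higher and a median of 0.33. Over all measured genes 4.72% were lower and 12.4% higher, the background for each of these lists. The lower genes were Il1b (-0.80), which encodes the cytokine IL-1 beta, and Tnf (-0.60). The widest ratios belonged to Cd83 (2.57), the lipopolysaccharide co-receptor Cd14 (1.16), Cd40 (0.91) and Birc3 (0.80). Of 11 genes listed as regulators of inflammatory mRNA decay all were measured, with 0 lower and 3 higher: Zfp36l2 (1.08), Rc3h1 (0.87) and Rc3h2 (0.75). Tnip1 (0.15), also on that list, acts in NF-kB signalling rather than in mRNA decay. Of 23 immediate early genes linked to ERK, the kinase pathway in the series title, 21 were measured, with 3 lower, 2 higher and a median of 0.13. Egr1, a transcription factor gene induced by ERK, had 1169 and 458 UMIs (-1.20, -1.36 to -1.04), beside Fosl1 (-1.48), Atf3 (-0.88) and the phosphatase gene Dusp2 (1.27). Of 29 genes of Toll-like and IL-1 receptor signalling 27 were measured, with 2 lower and 6 higher and a median of 0.28. Their widest ratios were those of Tlr7 (1.48), Cd14, the decoy receptor gene Il1r2 (-1.10) and Irak2 (1.08).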

How the data were processed

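The authors made the deposited matrices, which hold raw UMI counts per gene and cell, using Cell Ranger 6.1.2 (a version that the matrix headers name) on build mm10, per the submitters' processing notes. How barcodes were called as cells, and the annotation release, is not given in the sources used here. Members and gene lists were chosen with earlier results of these data known. Gene coordinates are GENCODE's for mm10.

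Kept cells had 200 or more genes and less than 10% of UMIs from mitochondrial genes, which removed 41 of 1784 DMSO and 22 of 1989 selinexor barcodes. Scrublet in scanpy 1.11.5 marked 1 and 5 doublets (0.162% of cells), too few for the caller to have worked, so doublets remain in practice. Multiplexing tags entered no gene total. Counts were summed per library or cluster and scaled to CPM; log2 ratios use no pseudocount. Intervals are exact 95% Poisson or binomial ones, conditional on the sum for ratios. A gene with at least 50 UMIs over both libraries (within a cluster, over its cells of both libraries) was measured, and it was called past 1.5-fold. Cells were clustered together on 2000 variable genes without chemokines, 30 principal components, 15 neighbours and Leiden resolution 1 (leidenalg 0.10.2). Genes correlated with the chemokines took part in the clustering. Thinning drew 2000 UMIs per cell without replacement.

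Named beside the members were up to 4 measured genes of each of 6 lists with the widest ratio, the members' receptors (1 is not reported here), and up to 3 genes per member with a mean Spearman rho of at least 0.3. Genes under 200 UMIs in a library were not ranked, which leaves out Cxcl3; Cxcl1, Cxcl5, Il1b and Tnf were named after their values were seen. Alternatives covered the cell filter, doublets, cell weighting, TMM (edgeR 4.0.16) and median-of-ratios scaling, depth, cycling cells, cell mix, richest cells and clustering. The scripts were tested on simulated data.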

Additional observations from a re-analysis of the deposited data

Results flagged for a closer look

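Ccl2 and Ccl4 had ratios in opposite directions in different clusters, which is why they are listed here; the difference between clusters was not tested, since each cluster of a library is 1 sample. The Ccl2 log2 ratio of selinexor over DMSO was 1.33 in the mitotic gene-led cells and -3.29 in the C1q- and class II-led cells. In the first, 50 of 100 selinexor UMIs came from 1 cell, and in the second the selinexor library had 3 UMIs. The Ccl4 log2 ratio was 2.83 in the Olfm4-led intermediate neutrophil-like cells, with 3 DMSO UMIs, and -2.63 in the C1q- and class II-led cells, with 7 selinexor UMIs.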

How the results depend on the processing

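Over 10 alternatives to the cell filter, doublet removal, weighting, scaling, depth, cell mix and richest cells, the log2 ratio ranged from -2.44 to -1.86 for Cxcl2, -2.84 to -1.53 for Cxcl3, -1.38 to 0.45 for Ccl2, -0.45 to 0.10 for Ccl3, -0.90 to 0.09 for Ccl4, 0.57 to 0.86 for Ccl6 and 0.45 to 1.12 for Ccl9. Cxcl2 and Cxcl3 stayed at least 1.5-fold lower under each of them. The number of members at least 1.5-fold higher was 2, except 1 with cells weighted equally (Ccl9 at 0.58) and 0 with the same cell mix (Ccl6 at 0.57 and Ccl9 at 0.45), so the increases depend on these choices. The same cell mix leaves out the stefin-led and Fn1-led cells. The number lower was 3 under the stricter cell filter (Ccl4 at -0.85), after thinning (Ccl4 at -0.90), with cells weighted equally (Ccl2 at -0.61), with the same cell mix (Ccl2 at -1.38) and without the richest cells (Ccl2 at -0.71). TMM and median-of-ratios scaling shifted every log2 ratio by -0.13 and -0.14. Another seeded draw of the thinning and leaving out the richest cell of each cluster were added after seeing the data. The former gave Cxcl2 in 38.9% of DMSO cells, under the interval of the main draw (39.3% to 44.5%). The intervals of thinned shares thus do not cover the draw. At other Leiden resolutions the leading cluster held 17.7% to 30.2% of the DMSO Cxcl2 UMIs. No paired analysis was possible because each group holds 1 library. Depth limits Cxcl3 and Ccl2 most, with 87 to 341 UMIs per library, and the Acod1-led cells, of which 13 and 1 reached 2000 UMIs.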

Other observations

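The Mcpt8- and Siglech-led cells, 19 with DMSO and 24 with selinexor, were led by the basophil protease gene Mcpt8 and by Siglech and were given no cell type name. In the DMSO library they stood at 2430 CPM of Ccl3 and 2078 CPM of Ccl4, and in the selinexor library at 28.0 and 112 CPM. A few cells carried the DMSO values: the 76 Ccl3 UMIs came from 5 cells, 28 of them from 1, and the 65 Ccl4 UMIs from 6 cells, 32 of them from 1. With 19 cells in the DMSO library this cluster fell under the minimum of 20 for a within-cluster ratio. The Ccr7-led dendritic cell-like cells, 5 and 35, stood at 858 and 7.63 CPM of Cxcl2, and all 53 DMSO UMIs of it came from 1 of the 5 cells.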
